A study of Mus musculus with 169 samples.

Results

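The 11 probes described here are the bead array probes that were detected in wild-type cerebellum and in no wild-type forebrain sample. They were chosen by the deposited detection p-values of the wild-type arrays, from 25697 probes in all. A member had a detection p under 0.05 on each of the 16 wild-type cerebellum arrays and a p of 0.05 or more on each of the 35 wild-type forebrain arrays (19 of cortex, 16 of hippocampus). The detection p compares a probe's signal with the array's negative controls. The files and annotation used here give no gene for the probe IDs, so the members are named by ID, their genes and sequences are not given, and the signal of Grn could not be checked on these arrays.

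Bead arrays measured cerebellum, cortex and hippocampus of mice of 3 genotypes at Grn, the gene of progranulin. The genotypes were knockout (KO), heterozygous (het) and wild type (WT), all on a mixed background of C57BL/6J, 129Sv/Jae and FVB. Cerebellum gave 48 arrays, 17 of KO, 15 of het and 16 of WT mice, each from 1 mouse. KO cerebellum had 5 arrays at 2 months and 3 each at 6, 9, 12 and 18 months. Het cerebellum had 4 arrays at 2 months, 3 each at 6, 9 and 12 months and 2 at 18 months. WT cerebellum had 4 arrays at 2 months, 3 each at 6, 9 and 18 months, 2 at 12 months and 1 at 16 months. The labels give no sex for the 12-month mice, and the WT cerebellum mice were all female at 6 months and all male at 9 months.

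Progranulin is a secreted glycoprotein that is also found in lysosomes, and in humans loss of both copies of its gene causes a lysosomal storage disease in which the cerebellum is affected. The cerebellum is set apart from the forebrain by its cell types. Granule cells, small excitatory neurons, make up most of its cells, and Purkinje cells are the output neurons of the cerebellar cortex. Transcripts of these cells can be abundant in cerebellum and scarce in cortex or hippocampus. A lack of detection on an array shows only that the signal did not stand above the negative controls.

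The data of 4 arrays, all from 2 mice of 2 months, went against their region labels. The array labelled KO 2-month cerebellum, replicate 4, detected 0 of the 11 probes, whereas the cortex array of the same mouse detected 7. The array labelled het 2-month cerebellum, replicate 2, detected 0 of the 11, whereas the cortex array of that mouse detected 8. The other 46 cerebellum arrays detected 10 or 11 each. Among the other 69 KO and het forebrain arrays, 6 detected any member, and none more than 2. The 2 mice were picked because their cerebellum array detected no member. Results without the 4 arrays are thus no independent test of the regional pattern.

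A region score from other probes set the same arrays apart. The score placed each array between the mean of WT forebrain (0) and of WT cerebellum (1), over 302 to 332 probes that differed by at least 2 on the log2 scale between those WT regions, without the 11 probes and without the array scored. The 2 arrays labelled cerebellum scored 0.05 (KO) and -0.05 (het), and the cortex arrays of these mice scored 0.30 (KO) and 0.38 (het). The other cerebellum arrays scored 0.53 to 1.24, the other KO and het forebrain arrays -0.09 to 0.21 and the WT forebrain arrays -0.09 to 0.25. A KO 6-month array at 0.61 and a WT 2-month array at 0.53 were the lowest of the remaining cerebellum arrays, and the next scored 0.78. The tests below that use the arrays against their labels are given with and without them. Some are also given without these 2 cerebellum arrays of low region score.

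**Figure D1:**
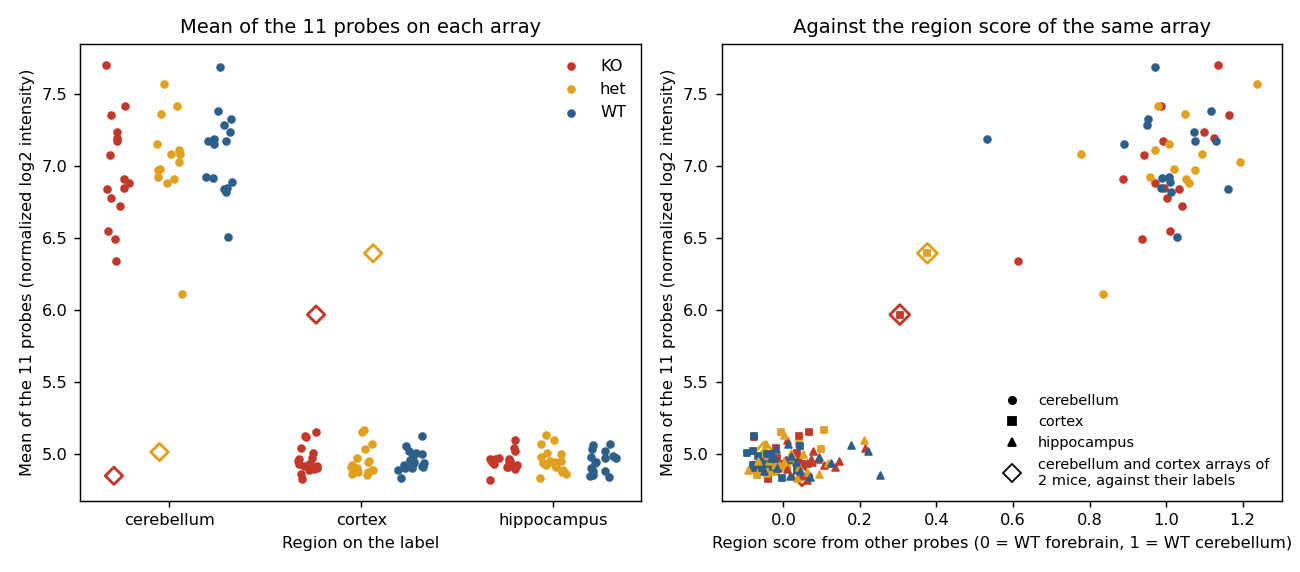
Mean normalized log2 intensity of the 11 probes on each of the 154 brain arrays, by the region on the label and genotype (left, points spread sideways for clarity) and against the region score of the same array (right). The diamonds mark the cerebellum and cortex arrays of 2 mice. Their cerebellum arrays sit at 4.85 and 5.01, among the forebrain arrays. Their cortex arrays sit at 5.97 and 6.39, above the other forebrain arrays. The lowest of the other cerebellum arrays is at 6.11 (het, 9 months), so over all ages 5.97 lies between the regions and 6.39 at the low end of cerebellum. The lowest of the other cerebellum arrays at 2 months is at 7.07 (KO), so at that age 5.97 and 6.39 both lie between the regions.

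The 11 probes were dim. Levels are given as log2 intensity after background correction and quantile normalization over all brain arrays. In WT cerebellum the mean level of a member lay between 6.49 and 7.71, with a median of 7.25, against a median of 9.29 for the 10257 probes detected on every WT cerebellum array. Of those 10257 probes, 83.1% were brighter than the brightest member. The members' WT difference between cerebellum and forebrain was 1.25 to 2.79, with a median of 2.09. These values describe the choice of the members and are no test of it.

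ILMN_2689136 was the brightest member, at 7.71 ± 0.71 in WT cerebellum (SD, n = 16) and 4.92 ± 0.20 in WT forebrain (SD, n = 35). Its deposited intensity in WT cerebellum had a lowest value of 106.8, a median of 328 and a highest value of 589.5. In WT forebrain its intensity had a lowest value of 76.6, a median of 124 and a highest value of 196.7. The raw intensities of the regions overlapped. After normalization they did not, with a lowest WT cerebellum level of 6.73 and a highest WT forebrain level of 5.75. ILMN_1225950 followed at 7.55 ± 0.80 in WT cerebellum and 4.84 ± 0.24 in WT forebrain. Its WT cerebellum levels were the most spread of the 11, from 5.65 to 8.43.

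The other members followed in a close order. In WT cerebellum ILMN_2915898 averaged 7.29 ± 0.55, ILMN_1243795 averaged 7.29 ± 0.55, ILMN_1217773 averaged 7.26 ± 0.49, ILMN_2764846 averaged 7.25 ± 0.48 and ILMN_2996338 averaged 6.99 ± 0.29 (SD, n = 16 each). ILMN_3127190 averaged 6.77 ± 0.38, ILMN_2744603 averaged 6.70 ± 0.38, ILMN_1246917 averaged 6.62 ± 0.42 and ILMN_2652890 averaged 6.49 ± 0.32. Neighbours in this order differed by less than 1 SD. In WT forebrain all 11 averaged 4.81 to 5.24.

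The rule left out brighter probes with larger region differences. In WT arrays 42 other probes differed more between cerebellum and forebrain than the member with the largest difference. Among those that differed more than the median member, 98 were detected on every WT cerebellum array, and these 98 were also detected on 1 to 35 of the 35 WT forebrain arrays, with a median of 27. Nearest outside the rule, 4 probes were detected on every WT cerebellum array and on 1 forebrain array. The brightest of these 4, ILMN_2732698, averaged 9.14 in WT cerebellum and 4.83 in WT forebrain, and its 1 detected forebrain array had a p of 0.0150. A further 4 probes were undetected in WT forebrain and missed 1 WT cerebellum array, and the brightest of them, ILMN_1248106, averaged 6.77 in WT cerebellum and 5.08 in WT forebrain with a p of 0.0764 on the array it missed.

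Nearest inside, ILMN_2652890 had a p of 0.0476 on 1 WT cerebellum array and a p of 0.0501 on 1 WT hippocampus array. ILMN_1225950 had a p of 0.0464 on 1 WT cerebellum array and of 0.0564 on 1 WT cortex array. The opposite pattern, detection on every WT forebrain array and on no WT cerebellum array, was met by 1 probe.

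The KO and het arrays, which the rule did not use, showed the same regional pattern. Without the 4 arrays, the 11 probes were detected in 322 of 330 probe and array pairs (97.6%) in KO and het cerebellum, and in 7 of 759 pairs (0.922%) in KO and het forebrain. With all arrays, KO cerebellum gave 172 detected pairs (92.0% of its pairs) and KO cortex 8 (3.83%). Het cerebellum gave 150 detected pairs (90.9%), het cortex 10 (5.35%) and het hippocampus 4 (2.14%). KO hippocampus had 0 detected pairs of 198.

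Without the 4 arrays, 6 members were detected on all 30 KO and het cerebellum arrays and 8 on none of the 69 forebrain arrays, and 5 met both. These 5 were ILMN_1217773, ILMN_1225950, ILMN_1246917, ILMN_2915898 and ILMN_2996338. The forebrain detections fell on ILMN_2744603 (3 arrays), ILMN_2652890 (2 arrays) and ILMN_2764846 (2 arrays). The same rule applied to the KO arrays without the 4 found 10 probes, and 7 of these were members, which is 70.0% of that list and 63.6% of the 11. Applied to the het arrays it found 8 probes, and 6 of these were members, which is 75% of that list and 54.5% of the 11. With all arrays the rule found 0 probes in KO and 0 in het mice.

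In the KO and het arrays all 11 probes were higher in cerebellum than in forebrain (mean of cortex and hippocampus) by limma, with mouse as a random block and genotype, age and sex in the model. The share of all 17208 tested probes that were called higher was 32.0%. The detection filter could be passed through 1 region alone, and the members, chosen for no detection in WT forebrain, passed it in cerebellum. Their direction was thus favoured in advance, and the share over all probes is not a like comparison. The log2 difference ran from 1.17 ± 0.08 (SE) for ILMN_2652890 to 2.64 ± 0.13 for ILMN_1225950, and its median was 1.73, against 0.0155 over all tested probes. The limma adjusted p of the 11 ran from 3.26e-40 to 4.41e-21. Without the 4 arrays all 11 were again called higher, where 33% of all tested probes were. The difference then ran from 1.27 ± 0.07 for ILMN_2652890 to 2.87 ± 0.09 for ILMN_1225950, with adjusted p from 3.77e-60 to 7.42e-30.

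Within single animals, 29 KO and het mice had an array of each region. Each of the 11 probes was higher in cerebellum than in both forebrain regions in 27 of these 29 mice. The exceptions were the 2 mice of the 4 arrays, since without them the count was 27 of 27 for each member. These 2 mice were picked by the members' own detection, so the count without them is a description and no test. The smallest margin over the higher forebrain region in those 27 mice was 0.07 for ILMN_1243795, 0.08 for ILMN_2652890 and 1.63 for ILMN_1217773.

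The first genotype question was whether loss of progranulin changed the 11 probes in cerebellum. No member passed the limma test of KO against WT (adjusted p under 0.05), where 0.647% of the 16835 tested probes did. The model held genotype, age as a factor and sex. Of the 11, 1 had an unadjusted p under 0.05. The KO minus WT difference was below 0 for 10 members, with a range of -0.57 to 0.10 and a median of -0.22, against 0.00157 over all tested probes. Without the 2 cerebellum arrays against their labels, 0 of 11 passed where 0.815% of all probes did, 1 had an unadjusted p under 0.05, and the differences ran from -0.40 to 0.18 with a median of -0.05. With the 2 cerebellum arrays of low region score also left out, 0 of 11 passed, where 0.771% of all probes did. In that fit the difference was above 0 for 6 members, with a range of -0.39 to 0.22 and a median of 0.0081. WT arrays had to show detection to choose the members and KO and het arrays did not, so the members' WT values are not free of the choice.

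ILMN_1243795 had the most negative KO difference. Its lowest, median and highest levels were 4.79, 6.92 and 8.58 in KO cerebellum (17 arrays), 4.75, 6.82 and 8.10 in het cerebellum (15 arrays) and 6.48, 7.36 and 8.26 in WT cerebellum (16 arrays). The groups overlapped, and the lowest KO and het values came from the 2 arrays against their labels. The KO minus WT difference was -0.57 ± 0.26 (SE; unadjusted p = 0.0346, limma adjusted p = 0.567), and without the 2 arrays -0.40 ± 0.16 (unadjusted p = 0.0161, adjusted p = 0.364). The het minus WT difference was -0.63 ± 0.27 (unadjusted p = 0.0240, limma adjusted p = 1.00), and without the 2 arrays -0.42 ± 0.17 (unadjusted p = 0.0166).

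No member passed the test of het against WT, where 0.0119% of all tested probes (2 probes) did, and 1 had an unadjusted p under 0.05. The members' median het minus WT difference was -0.11 with a range of -0.63 to 0.25. Without the 2 arrays 0 of 11 passed, where 0.0120% of all probes did, and the members' median difference was 0.01 with a range of -0.42 to 0.47. The comparison of KO with het contrasts no array of the rule, although WT arrays entered its fit through the spread, age and sex terms. There 0 of 11 members passed, where 1.11% of all probes did, and 0 had an unadjusted p under 0.05. Without the 2 arrays 0 of 11 passed, where 1.37% of all probes did, and 1 had an unadjusted p under 0.05.

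That 1 probe was ILMN_1225950. Without the 2 arrays its lowest, median and highest levels were 5.89, 7.52 and 8.38 in KO cerebellum (16 arrays) and 6.32, 7.97 and 8.78 in het cerebellum (14 arrays), and the groups overlapped. Its KO minus het difference was -0.61 ± 0.27 (SE; unadjusted p = 0.0271, limma adjusted p = 0.285), against -0.54 ± 0.33 with all arrays (adjusted p = 0.504). At 12 months its levels were 6.74, 5.89 and 7.57 in KO mice and 8.24, 7.83 and 8.42 in het mice, and WT mice had 7.54 and 7.59. At that age each KO array lay below each het array.

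A lack of calls does not show that the levels were equal. With all arrays the 95% confidence intervals of the KO minus WT differences lay between -1.09 and 0.49 on the log2 scale for the 11 probes, and without the 2 arrays between -0.73 and 0.50. Differences within these intervals are not excluded by the data.

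**Figure D2:**
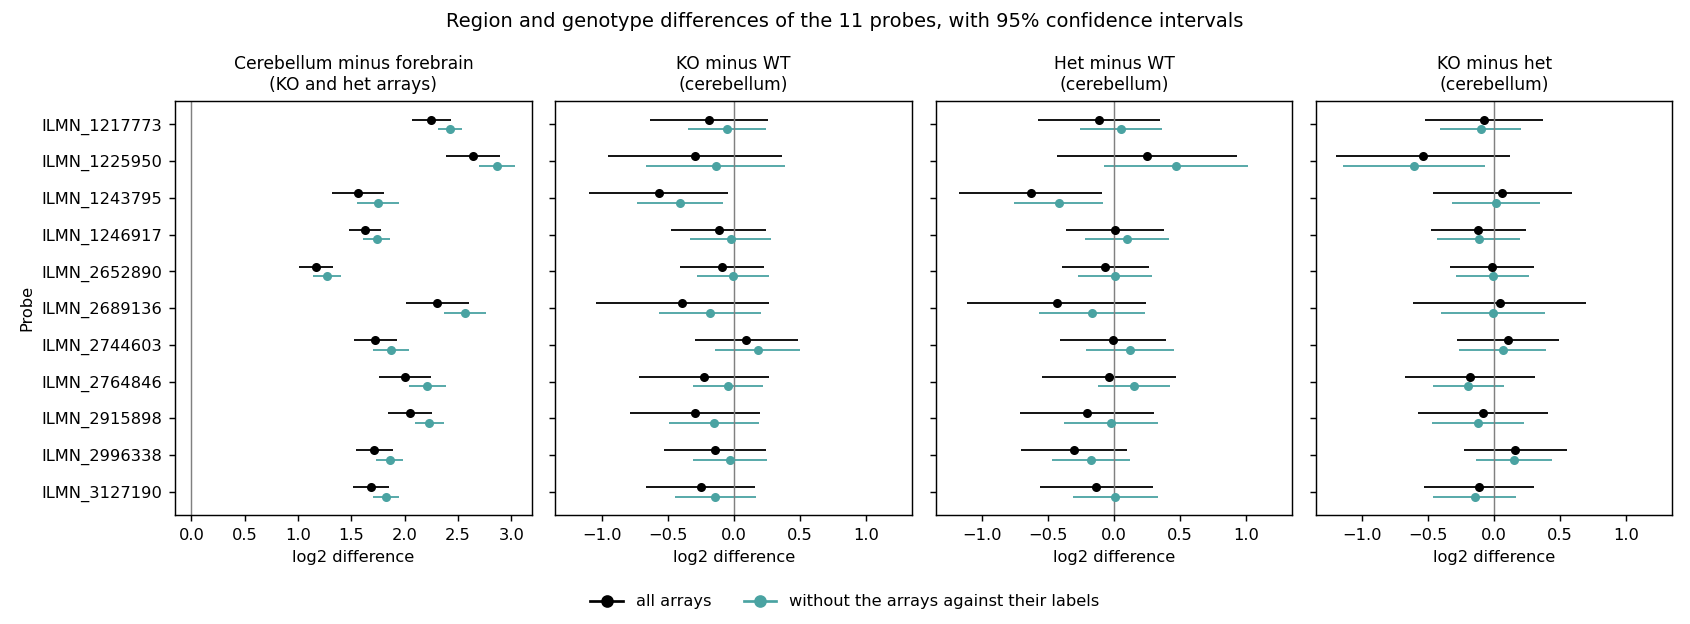
Log2 differences of the 11 probes (points) with 95% confidence intervals (bars), for cerebellum minus forebrain in KO and het arrays, and for KO minus WT, het minus WT and KO minus het in cerebellum; black with all arrays, teal without the arrays against their labels. All region differences lie between 1.17 and 2.87, whereas most of the genotype intervals include 0.

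At single ages, 581 of 16835 probes (3.45%) passed the test of KO against WT at 1 or more of the 5 ages, and 0 of the 11 members did. The shares were 5.69% of the probes and 0 of 11 members without the 2 arrays. Leaving out also the cerebellum arrays with region scores of 0.53 and 0.61, 0.861% of the probes and 0 of 11 members passed. An unadjusted p under 0.05 at any age was reached by 1 member with all arrays and by 2 without the 2. At 2 months the median KO minus WT difference of the 11 was -0.47 with all arrays and -0.06 without the 2. At 6, 9, 12 and 18 months the medians were -0.25, 0.05, 0.06 and -0.13 with all arrays and -0.28, 0.04, 0.06 and -0.13 without the 2. A further fit also left out the 2 arrays of low region score. Its medians at 2, 6, 9, 12 and 18 months were -0.12, 0.06, 0.02, 0.06 and -0.13.

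The lowest unadjusted p without the 2 arrays was at 6 months. ILMN_1217773 had levels of 7.85, 6.58 and 6.58 in KO cerebellum and 8.09, 7.55 and 7.85 in WT cerebellum at 6 months, and the groups overlapped. Its difference was -0.93 ± 0.56 with all arrays (SE; limma adjusted p = 0.363) and -0.92 ± 0.35 without the 2 (adjusted p = 0.107). With all arrays weighted by quality it passed the test, at -1.19 (limma adjusted p = 0.00864), as did ILMN_1243795 at 6 months, at -1.02 (adjusted p = 0.0383). In that weighted fit 3944 of 16835 tested probes passed at 1 or more ages, against 581 unweighted. The KO array with a region score of 0.61 is among the 3 at 6 months, and without it, the WT array of 0.53 and the 2 arrays the difference of ILMN_1217773 was -0.68 ± 0.41 (adjusted p = 0.422). The WT mice at 6 months were all female and 1 of the 3 KO mice was, and the part of sex in this difference was not tested beyond the sex term of the model.

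A change of the KO minus WT difference with age was tested as a slope per month. The interaction of KO with month passed the test for 31 of 16835 probes (0.184%) and for 0 of 11 members. Leaving out the 2 arrays, 0.210% of the probes and 0 of 11 members passed. An unadjusted p under 0.05 was reached by 0 members in both. The members' median was 0.023 per month with all arrays and -0.0079 per month without the 2, so its sign rests on 2 arrays at 2 months.

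**Figure D3:**
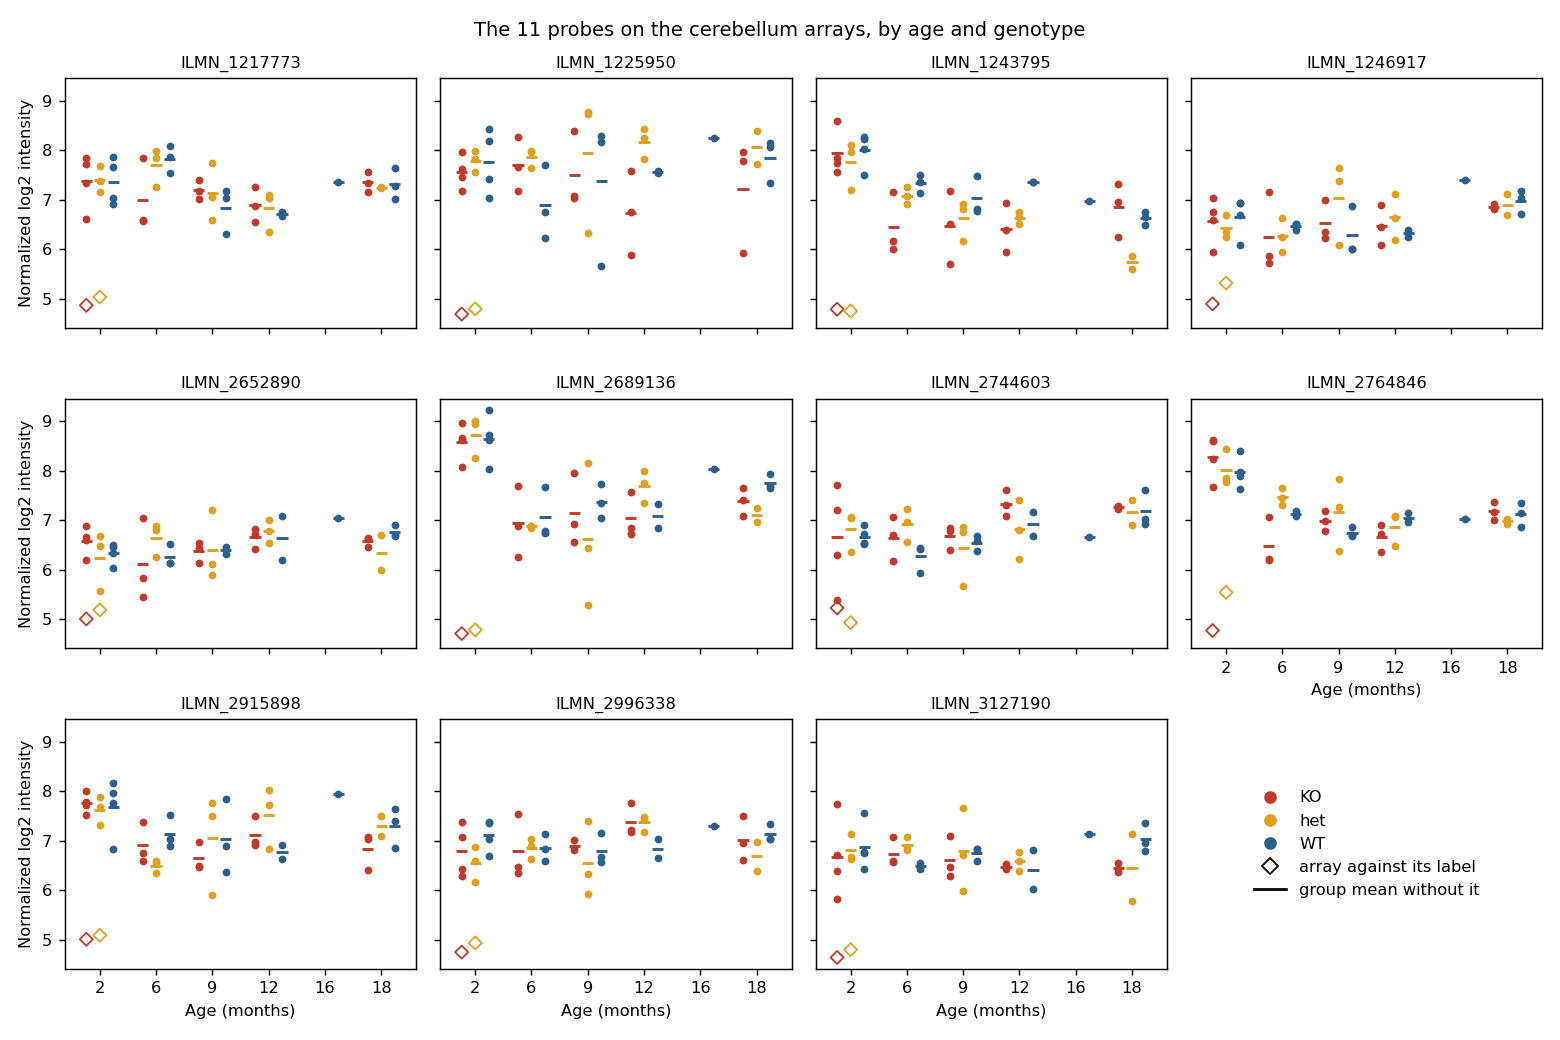
Normalized log2 intensity of each of the 11 probes on the 48 cerebellum arrays, by age in months and genotype, with 1 point per array, a bar for each group mean and a diamond for the 2 arrays against their labels, which are left out of the means. ILMN_2689136 and ILMN_2764846 are highest at 2 months, and the 3 genotypes overlap for most probes and ages.

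With age the members did not move as a group. Over 2 to 18 months, with all 47 cerebellum arrays of these ages, 3 members rose per month, where 25.1% of all tested probes rose, and 1 fell, where 18.4% of all probes fell. ILMN_2744603, ILMN_1246917 and ILMN_2652890 rose and ILMN_1243795 fell. The call of ILMN_2652890 was marginal, with a slope of 0.028 per month (limma adjusted p = 0.0495), and did not pass in 32 of the 47 fits that each left out 1 array (adjusted p of 0.0505 to 0.107 in those). The call of ILMN_1246917 (adjusted p = 0.0327) did not pass in 5 of them (0.0510 to 0.0712). Without the 2 arrays 1 member rose, where 23.2% of all probes did, and 3 fell, where 16.8% did. ILMN_2744603 rose and ILMN_1243795, ILMN_2689136 and ILMN_2764846 fell. ILMN_2744603 and ILMN_1243795 passed the test in both fits. In KO and het arrays alone, the age fit that uses no array of the rule and holds the 2 arrays against their labels, ILMN_2744603 rose and no other member passed. In that fit 5270 of 16359 tested probes passed, in either direction. There ILMN_1243795 had a slope of -0.050 (limma adjusted p = 0.162), ILMN_1246917 of 0.044 (adjusted p = 0.0560) and ILMN_2652890 of 0.028 (adjusted p = 0.210).

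ILMN_2744603 rose in each fit. At 2 months its levels were 5.39, 7.72, 7.20, 5.23 and 6.30 in KO mice, 7.05, 4.93, 6.36 and 7.06 in het mice and 6.90, 6.72, 6.54 and 6.51 in WT mice, and 5.23 and 4.93 are the arrays against their labels. At 18 months its levels were 7.25, 7.29 and 7.22 in KO mice, 7.41 and 6.91 in het mice and 7.60, 7.02 and 6.93 in WT mice. The 2 ages overlapped in KO and het mice, and in WT mice each 18-month level lay above each 2-month level. The slope was 0.049 ± 0.014 per month (SE; limma adjusted p = 0.00491), and 0.035 ± 0.012 without the 2 arrays (adjusted p = 0.0210).

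ILMN_1243795 fell in both fits of the 3 genotypes over 2 to 18 months, and did not pass in KO and het arrays alone. At 2 months its levels were 7.85, 7.75, 8.58, 4.79 and 7.55 in KO mice, 7.19, 4.75, 8.10 and 7.97 in het mice and 8.22, 8.03, 8.26 and 7.51 in WT mice. At 18 months they were 6.95, 6.25 and 7.32 in KO mice, 5.61 and 5.86 in het mice and 6.48, 6.65 and 6.74 in WT mice. Apart from the 2 arrays against their labels (4.79 and 4.75), the 2-month levels of a genotype lay above its 18-month levels. The slope was -0.059 ± 0.019 per month (SE; limma adjusted p = 0.0109), and -0.083 ± 0.014 without the 2 arrays (adjusted p = 9.79e-06).

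Of these fits, ILMN_2689136 and ILMN_2764846 fell in the one without the 2 arrays. The 2-month levels of ILMN_2689136 were 8.61, 8.67, 8.97 and 8.08 in KO mice, 8.25, 8.93 and 9.01 in het mice and 8.71, 9.22, 8.61 and 8.03 in WT mice. At 6 months they were 7.70, 6.26 and 6.89 in KO mice, 6.89, 6.89 and 6.85 in het mice and 6.73, 7.66 and 6.79 in WT mice. The 2-month levels lay above the 6-month levels in each genotype. At 18 months they were 7.41, 7.09 and 7.66 in KO mice, 7.24 and 6.96 in het mice and 7.69, 7.92 and 7.65 in WT mice. The slope of ILMN_2689136 over 2 to 18 months was -0.061 ± 0.021 per month (SE; limma adjusted p = 0.0184) and that of ILMN_2764846 was -0.059 ± 0.014 (adjusted p = 0.000895).

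From 6 to 18 months, where the 2 arrays play no part, 2 members rose, where 24.4% of all tested probes rose, and 0 fell, where 19.6% of all probes fell. ILMN_2744603 rose by 0.056 ± 0.015 per month (SE; limma adjusted p = 0.00228) and ILMN_1246917 by 0.044 ± 0.017 per month (adjusted p = 0.0317). ILMN_1243795 had a slope of -0.036 ± 0.017 (adjusted p = 0.0950), ILMN_2689136 of 0.043 ± 0.021 (adjusted p = 0.102) and ILMN_2764846 of 0.0082 ± 0.0139 (adjusted p = 0.657). Without the cerebellum arrays of low region score, ILMN_1246917 no longer passed (0.039 per month, limma adjusted p = 0.0573) and ILMN_1243795 fell (-0.043 per month, adjusted p = 0.0377), so that 1 member rose and 1 fell. In that fit 7098 of 15970 tested probes passed, in either direction. The 2-month arrays were dimmer before normalization. The median deposited intensity of all probes was 79.7 to 92.0 on the cerebellum arrays of 2 months, 220.5 to 318 at 6 months, 201.2 to 326.8 at 9 months, 146.8 to 206 at 12 months and 138.6 to 199.5 at 18 months. It thus also differed within 6 to 18 months. Its part in the differences between ages, those from 6 to 18 months included, was not tested.

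**Figure D4:**
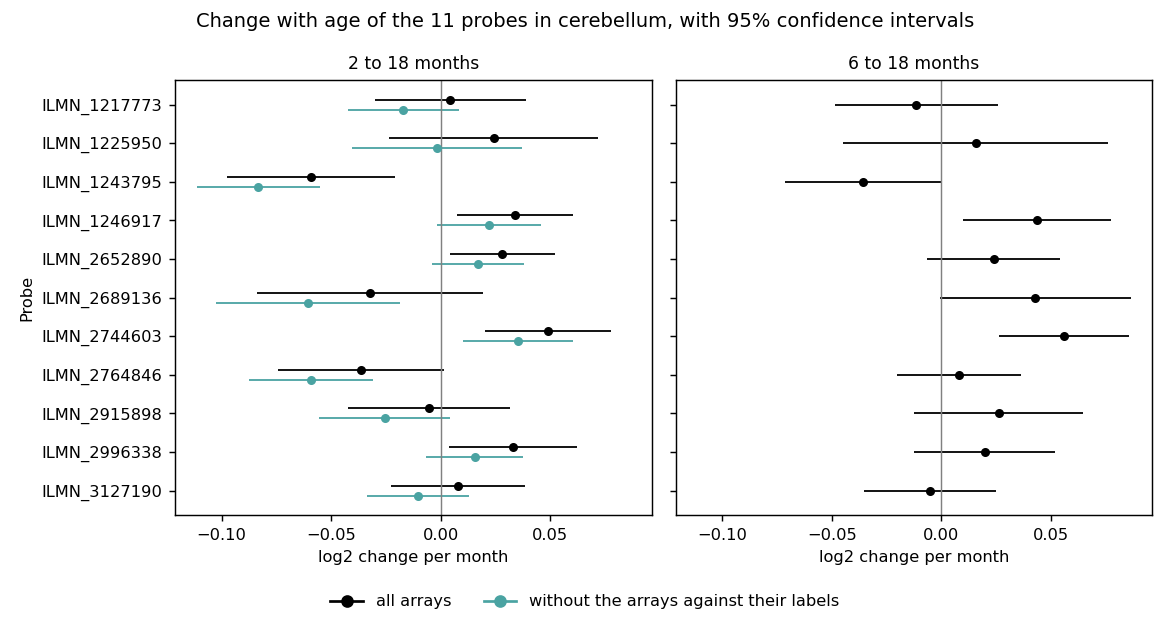
Log2 change per month of the 11 probes in cerebellum (points) with 95% confidence intervals (bars), over 2 to 18 months (left; black with all arrays, teal without the 2 arrays against their labels) and over 6 to 18 months (right). ILMN_2744603 is above 0 in all 3 fits, and ILMN_2689136 and ILMN_2764846 are below 0 on the left and above 0 on the right.

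Female and male mice were compared on the 39 cerebellum arrays of 2, 6, 9 and 18 months, whose labels give a sex. No member passed the limma test, where 9 of 16653 probes (0.0540%) did, and 0 had an unadjusted p under 0.05. The female minus male differences of the 11 ran from -0.22 to 0.12, with a median of -0.0056. Without the 2 arrays against their labels 0 of 11 passed, where 0.0424% of all probes did, and the differences ran from -0.18 to 0.19, with a median of 0.078.

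Over cerebellum arrays the members varied partly together. After each array's level was set against the mean of its genotype and age, the correlation of 2 members over 45 arrays, without the 2 arrays, had a median of 0.40 over the 55 pairs and ran from -0.25 to 0.71. With the 2 arrays (47 in all) the median was 0.71, with a range of 0.27 to 0.91. These values are a description, since all 11 probes are read from the same arrays and normalized together.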

How the data were processed

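Brain RNA of KO, het and WT mice was measured on 154 bead arrays, per the labels. The deposited table gives, per the file headers, an intensity per probe and array and its detection p-value, which runs in steps of 1 in 798. The intensities are not normalized, since their medians differ between arrays. A further 9 pairs of columns match no sample here and were not used, nor were the microglia arrays. The members and the tests were chosen with earlier results of these data known. Intensities were background-corrected and quantile-normalized with limma 3.58.1 (neqc, offset 16) in R 4.3.3. Tests with limma took the probes whose detection p was under 0.05 on 3 or more arrays of 1 region, with Benjamini-Hochberg adjustment over all tested probes and an adjusted p under 0.05 as the threshold. Cerebellum fits held genotype, age and sex (midway where not given). The 16-month WT arrays of the 3 regions entered the rule, and the 16-month KO forebrain arrays the detection shares, but no 16-month array entered a fit. The region fit took mouse as a random block (correlation 0.0483). The rule for naming genes and the marker lists could not be applied without symbols, so all 11 members are named; other probes were named after their values were seen. The region score, its limit of 0.7 for a low score and the fits without arrays against their labels were chosen after the data were seen. The limma steps were tested on simulated data with independent noise on each array. That test could not judge the mouse block or the effect of arrays against their labels. Arrays carry no counts, so their number limits the precision. In the cerebellum fits, with 1 array per mouse, the limma p-values measure the spread between mice. In the region fit they also rest on the spread between the arrays of a mouse.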

Additional observations from a re-analysis of the deposited data

Results flagged for a closer look

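In the 2-month groups, a gap between 1 array and the rest of its group that was large for the group's range marked 10 values, all on 4 arrays, among 42 sets of values examined. Chance marks about 1 in 20 such sets, but these sets are not independent. They hold single members and their mean read on the same arrays, so the count of 10 is not set against that share. The mean of the 11 probes was 4.85 on KO 2-month cerebellum replicate 4 and 5.01 on het 2-month cerebellum replicate 2, far below the other arrays of their groups. It was 5.97 on KO 2-month cortex replicate 4 and 6.39 on het 2-month cortex replicate 2, far above theirs. On the same KO cerebellum array, ILMN_1225950 stood apart at 4.69, ILMN_1243795 at 4.79, ILMN_2689136 at 4.71, ILMN_2764846 at 4.77 and ILMN_2915898 at 5.01. On the same het cerebellum array, ILMN_1225950 stood apart at 4.79. The KO cerebellum and KO cortex arrays come from 1 mouse, and the het cerebellum and het cortex arrays from another.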

How the results depend on the processing

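The number of members depended on the rule. It was 11 as stated, 6 with a p under 0.01 on every WT cerebellum array, 19 with 1 WT array allowed to miss, and 26 with a p of 0.01 or more on every WT cortex and hippocampus array. Leaving out each WT array in turn gave 11 to 13 members. All 11 remained higher in KO and het cerebellum than forebrain under each of the alternatives run. The counts of 0 members for KO against WT, het against WT, KO against het, the KO-by-month slope and female against male remained 0 in each alternative. For KO against WT at single ages, 2 members passed, both at 6 months, when arrays were weighted by quality (ILMN_1217773 at -1.19 and ILMN_1243795 at -1.02), where 23.4% of all probes passed against 3.45% unweighted. The share of probes passing at 1 or more ages was 1.81% without sex in the model, 5.69% without the arrays against their labels, 0.861% without those and the 2 arrays of low region score, and the count was 99 to 1360 probes with each array left out in turn (581 with all). It was lowest without KO 6-month replicate 2 and highest without KO 6-month replicate 1. It also moved by over 1.5 times, downward without KO 6-month replicate 3 or WT 6-month replicate 1 and upward without WT 6-month replicate 2. Weighting gave 1.61% for KO against WT (0.647% unweighted) and 2.65% for KO against het (1.11% unweighted), and leaving out the 2-month arrays gave 1.20% and 2.67%. The count of members that changed per month over 2 to 18 months was 4, was 1 in KO and het arrays alone (ILMN_2744603), and was 2 to 5 with each array left out in turn, with 2 without WT 18-month replicate 2 or without KO 18-month replicate 3. Of all tested probes, 7320 of 16835 changed with all arrays and 5270 of 16359 in KO and het arrays alone. From 6 to 18 months the count of members was 2, and was 1 with quantile normalization without background correction and 1 among probes detected on every array of the fit, where 7 members were tested. Of all tested probes, 7033 of 16014 changed with that normalization and 5434 of 10795 under that filter. The count of members was also 2 without the arrays of low region score, but ILMN_1243795 then fell in place of the rise of ILMN_1246917. The cause of these changes was not tested. No paired analysis was possible because each mouse has 1 genotype and the labels give replicate number 3 to 142 of the 154 brain samples, so the numbers link no samples across genotypes. The chip as a block was not run, since the headers give no chip. Fits without the arrays against their labels, fits without the 2 arrays of low region score, the stricter filter and the left-out WT arrays of the rule were chosen after the data were seen. The members were dimmer than most probes detected in WT cerebellum, and the number of arrays limits the precision.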
